A study of Mus musculus with 72 samples.

Results

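The genes described here are 9 genes for factors that muscle secretes and that can act on the same muscle or on other tissues: *Mstn*, *Fst*, *Fndc5*, *Metrnl*, *Il15*, *Ostn*, *Apln*, *Fgf21*, and *Vegfa*. They were chosen by name as candidate myokines, with earlier results of these data in view, from the 55401 genes counted in each table. The record of the choice does not say which measured values entered it, so the P values below describe the size of a difference against the spread between libraries and are not independent evidence for the choice. In the gastrocnemius, 8 of the 9 genes passed the filter on low values (a mean normalized count above 5) and were tested among 16199 genes, and *Fgf21* did not pass it.

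A myokine is a protein that muscle fibers release. Myostatin (*Mstn*) is a TGF-beta family ligand that signals through activin type II receptors and SMAD2/3 to restrain muscle growth, and follistatin (*Fst*) binds it and activins outside the cell. Irisin is cut from the membrane protein encoded by *Fndc5*, which, like meteorin-like (*Metrnl*), is a known target of the coactivator PGC-1alpha. Osteocrin (*Ostn*, musclin) slows clearance of natriuretic peptides by occupying the NPR3 receptor. Apelin (*Apln*) and VEGF-A (*Vegfa*) act on endothelial cells, interleukin 15 (*Il15*) on lymphocytes and muscle, and FGF21 (*Fgf21*) on fat and liver.

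RNA-Seq libraries came from male mice with a germline knockout of *Bmal1* (gene symbol *Arntl*), which removes the core clock activator from every tissue, and from their WT littermates. KO+AAV mice were knockout mice that received AAV9-CK6-Bmal1-HA systemically at postnatal day 5, with the CK6 promoter driving constitutive expression in muscle fibers, and KO+GFP mice were knockout mice that received the same vector with GFP in place of Bmal1. For the gastrocnemius (GTN), taken at ZT1, there were 6 WT, 6 KO, and 7 KO+AAV libraries of age 10 weeks and 5 libraries of each group of age 40 weeks, and a separate 10-week experiment compared 3 KO+GFP mice with 3 KO control mice. Heart, lung, liver, and white fat came from 4 KO and 4 KO+AAV mice at 40 weeks. The vector's protein was not seen in heart, lung, or liver in the study, so in KO+AAV mice these are taken as tissues of a knockout. No WT libraries of the other tissues were used here.

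Of the 10-week GTN libraries, ICBR sequenced 3 of WT, 3 of KO, and 4 of KO+AAV, and Novogene 3 of each group and all 40-week GTN libraries, so reads on genes ranged from 9325122 to 41733282 per library. Fast fiber markers had reads in all GTN groups, 7 of 7 in each. *Arntl* mRNA, whose reads outside the deleted part remain countable, averaged 526.2 ± 94.8 (SD, n = 6) normalized counts in WT and 238.1 ± 39.8 (n = 6) in KO at 10 weeks. In libraries labelled KO+AAV it was not above KO, with a mean of 231.9 ± 40.0 (n = 7) at 10 weeks (log2 fold change -0.06 ± 0.18 SE, adjusted P = 0.962, limma) and values of 268.1 to 358.6 at 40 weeks (-0.48 ± 0.20, adjusted P = 0.412). Whether reads of the vector are counted at *Arntl* was not tested, so the KO+AAV group rests on its labels, and at 40 weeks its counts of the clock target *Dbp* were 115.1 to 474.6 against 32.2 to 92.8 in KO. The library labelled KO at 40 weeks, replicate 2, stood apart, with 1039 *Arntl* counts against 307.5 to 395.4 in the other 4 KO libraries and 479.9 to 607.9 in WT. Its counts of the clock targets *Dbp* (32.2) and *Per3* (3.58) were below every WT library. Some results that rest on it are given with and without it, and changes with age in KO are given with it only. Summed slow fiber markers differed from library to library within every main GTN group, from 1539 to 157754 normalized counts, and those values are set beside the genes that moved with them.

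Between genes, levels were compared as RPKM, reads scaled to exon length and to the depth of the library. *Vegfa* had the highest median RPKM over the 34 main GTN libraries (59.5), followed by *Fndc5* (29.7), *Ostn* (22.8), and *Mstn* (19.96). *Metrnl* (3.03), *Il15* (1.69), *Apln* (0.991), and *Fst* (0.918) were lower, and the *Fgf21* median was 0. The normalized count varied most over these libraries for *Apln* (coefficient of variation 100.9%) and *Ostn* (88.2%) among the 8 tested genes, and least for *Vegfa* (28.9%). After adjustment for site, the means of the 6 GTN groups spanned more than 1 log2 unit for 4 of the 8 tested genes: *Ostn* (2.75), *Apln* (2.71), *Fst* (2.14), and *Mstn* (1.73). Of all tested genes, 1.9% had a larger span than *Ostn*, 2.0% than *Apln*, 4.2% than *Fst*, and 7.9% than *Mstn*. Spans of *Metrnl* (0.96), *Il15* (0.94), *Fndc5* (0.79), and *Vegfa* (0.55) were smaller, and 52.0% of genes exceeded that of *Vegfa*.

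**Figure D1:**
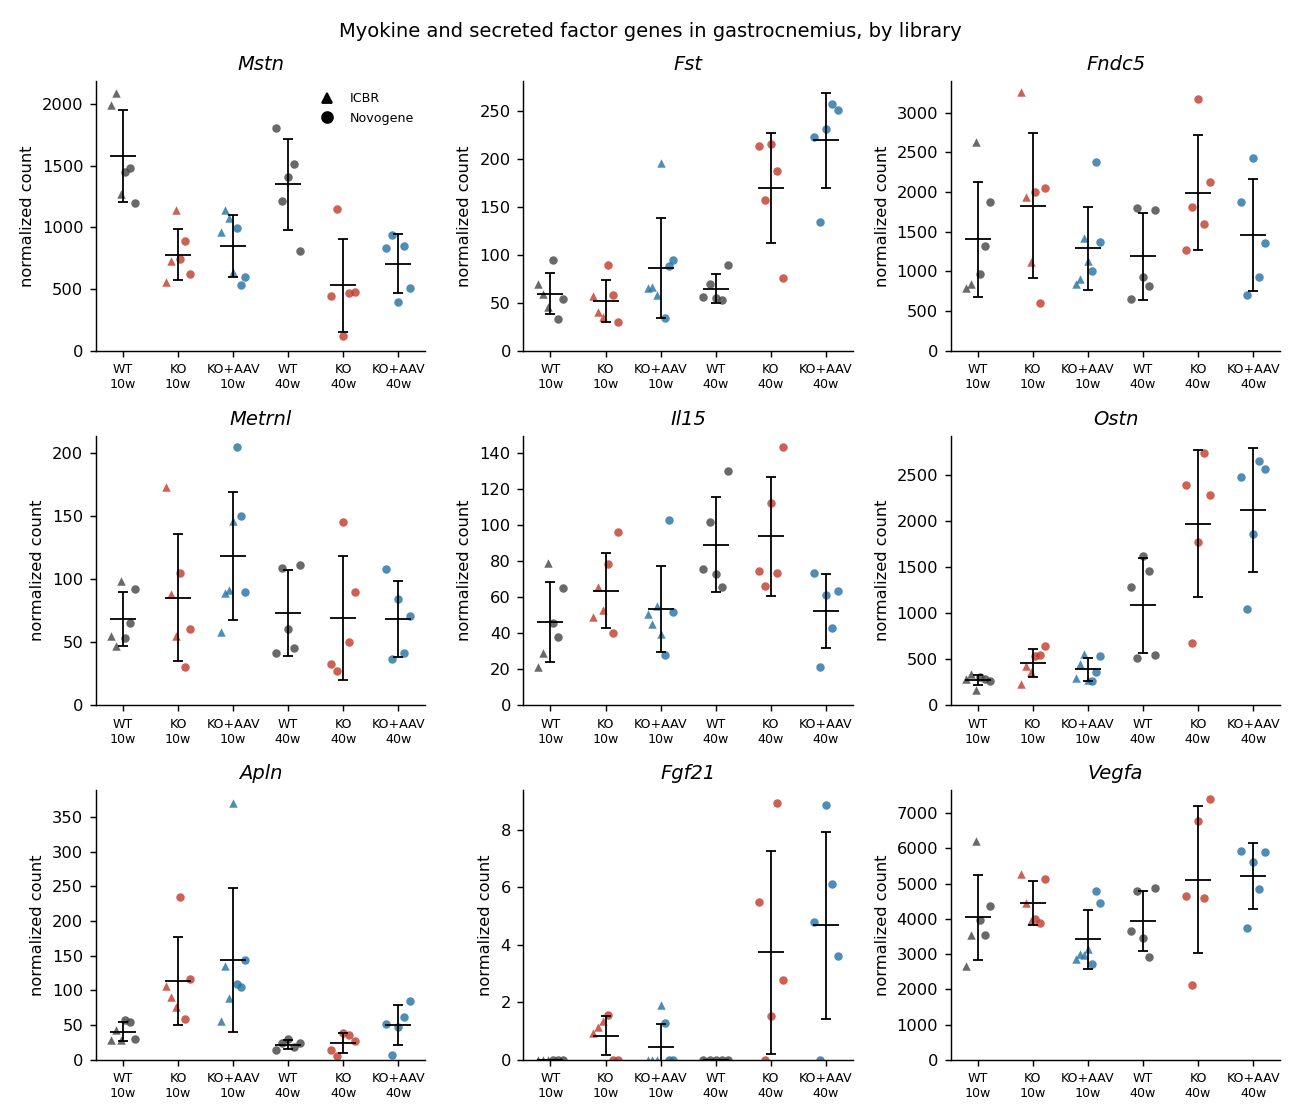
Normalized count (y axis) of each of the 9 genes in the 6 main GTN groups (x axis), 1 point per library, with triangles for ICBR and circles for Novogene and bars for the mean ± SD. *Mstn* lies highest in WT at both ages, *Fst* is highest in KO and KO+AAV at 40 weeks, *Ostn* lies higher at 40 weeks than at 10 weeks, and all WT points of *Fgf21* are at 0.

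Promoter sequence is shown for the clock-bound motif it may hold, since BMAL1 with CLOCK binds the E-box CACGTG and related CANNTG hexamers. RefSeq windows on GRCm38.p6, each of 250 bases upstream of a RefSeq transcript start, were held for 6 of the 9 genes (7 windows, *Vegfa* having 2). The *Metrnl* window and 1 *Vegfa* window lie inside the gene as annotated, and those of *Mstn*, *Apln*, and *Fgf21* end at the annotated start. CACGTG was found in 1 of the 7 windows, that of *Fgf21*, at 50 bases before the start, and in 6.02% of all 32851 windows of this length. CANNTG, which includes CACGTG and was searched as letters on both strands, was found in 5 of 7 windows and in 66.2% of all. The 3 windows below belong to the gene that was lower in KO at both ages (*Mstn*), the one with the widest difference at 10 weeks (*Apln*), and the only one with CACGTG (*Fgf21*). They run 5′ to 3′ on the gene's strand with each CANNTG in capitals, and cover chr1:53061390-53061639 (plus strand), chrX:48034854-48035103 (minus strand), and chr7:45615491-45615740 (minus strand).
Mstn: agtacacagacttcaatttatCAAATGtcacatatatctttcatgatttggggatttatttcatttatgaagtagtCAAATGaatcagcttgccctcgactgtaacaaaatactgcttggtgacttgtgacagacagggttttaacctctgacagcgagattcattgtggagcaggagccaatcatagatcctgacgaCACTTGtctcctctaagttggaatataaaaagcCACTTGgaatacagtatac
Apln: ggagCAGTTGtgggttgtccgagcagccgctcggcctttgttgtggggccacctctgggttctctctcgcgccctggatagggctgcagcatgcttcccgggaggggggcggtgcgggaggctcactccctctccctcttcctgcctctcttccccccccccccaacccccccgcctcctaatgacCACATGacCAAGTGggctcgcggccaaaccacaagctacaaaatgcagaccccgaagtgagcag
Fgf21: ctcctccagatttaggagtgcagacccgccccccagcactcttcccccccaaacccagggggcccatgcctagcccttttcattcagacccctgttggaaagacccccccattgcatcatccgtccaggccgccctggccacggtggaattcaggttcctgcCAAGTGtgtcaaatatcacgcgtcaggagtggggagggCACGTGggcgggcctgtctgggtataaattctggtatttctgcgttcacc
A match is a description of these letters and not evidence that a factor was bound there.

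*Mstn* (ENSMUSG00000026100, chromosome 1, 53061640 to 53068079, GRCm38) was higher in WT than in KO at both ages. At 10 weeks, normalized counts in WT were 1202 at the lowest, 1469 at the median, and 2088 at the highest, and in KO 556.9, 734.2, and 1140.4. Every WT library lay above every KO library. The WT mean was 1581 ± 372 (SD, n = 6) and the KO mean 779.9 ± 209.5 (n = 6). The log2 fold change was 1.03 ± 0.32 SE, or 2.04-fold (adjusted P = 0.0409, limma). Here and below, folds and log2 differences come from the model on log2 counts and are not ratios of the printed means. *Mstn* was the 1 of 8 genes that passed the test in WT versus KO at 10 weeks, where 8.0% of all genes tested did. Within Novogene libraries the difference was 0.88 ± 0.21 (adjusted P = 0.0495) and within ICBR libraries 1.17 ± 0.29 (adjusted P = 0.0505).

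In the 40-week libraries, *Mstn* counts were 1804, 1216, 1407, 1511, and 809.7 in WT. In KO they were 443.0, 1149.7, 116.5, 465.8, and 473.0, and the library labelled replicate 2 was the only KO library to overlap with WT. The means were 1349.5 ± 369.3 (SD, n = 5) in WT and 529.6 ± 377.5 (n = 5) in KO. The log2 fold change was 1.63 ± 0.35 SE, or 3.10-fold (adjusted P = 0.000889), and 1.99 without replicate 2 (adjusted P = 3.22e-05). With *Fst*, described next, *Mstn* made 2 of 8 genes called in WT versus KO at 40 weeks, against 23.5% of all genes. The *Mstn* difference between WT and KO did not pass the test of a change with age (difference of 0.61 ± 0.47 between ages, adjusted P = 0.611).

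In KO+AAV at 40 weeks the *Mstn* mean lay between those of KO and WT, and neither difference passed the test in limma. The difference from WT did so with DESeq2, with the 2 groups alone (adjusted P = 0.0248), with the slow fiber covariate (0.0406), and without WT replicate 5 (0.0406). KO+AAV counts at 40 weeks were 830.4, 941.7, 394.9, 848.4, and 510.6. These values overlapped with both KO and WT libraries. The KO+AAV mean was 705.2 ± 237.8 (SD, n = 5). Its log2 difference from KO in the model was 0.67 (95% interval -0.04 to 1.38, adjusted P = 0.540), or 1.03 without the library labelled KO replicate 2 (adjusted P = 0.207). KO+AAV lay 0.96 ± 0.35 below WT in the model (adjusted P = 0.067, and 0.0366 in DESeq2). At 10 weeks the KO+AAV mean of 849.6 ± 251.9 (n = 7) differed from KO by 0.08 (95% interval -0.54 to 0.71, adjusted P = 0.967) and lay below WT by 0.94 ± 0.31 (adjusted P = 0.0712), with no overlap with WT. That last difference was called in DESeq2 (adjusted P = 0.0242), edgeR (0.046), Novogene libraries alone (0.0471), the 2 groups alone (0.00454), and with a replicate block (0.00129). In the order of group means, WT at 10 weeks and WT at 40 weeks differed by less than the larger of their SDs, the step from WT at 40 weeks to KO+AAV at 10 weeks exceeded it, and the 4 groups below (849.6 to 529.6) each lay within it of the next.

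*Fst* (ENSMUSG00000021765, chromosome 13, 114452290 to 114458951, with Gm47040 on the other strand over 2.51% of its exon bases) was higher in both knockout groups than in WT at 40 weeks, and it rose with age in these groups. In the 40-week libraries *Fst* counts were 56.3, 70.2, 54.9, 53.2, and 89.1 in WT. In KO they were 213.2, 157.6, 216.1, 187.4, and 75.9, and only replicate 5 fell inside the WT range. In KO+AAV they were 223.1, 134.7, 231.8, 257.9, and 251.7, all above every WT library. The means were 64.7 ± 15.2 (SD, n = 5) in WT, 170.0 ± 57.7 (n = 5) in KO, and 219.8 ± 49.7 (n = 5) in KO+AAV. In the model WT was below KO by 2.49-fold (log2 fold change -1.32 ± 0.34 SE, adjusted P = 0.00524) and below KO+AAV by 3.34-fold (-1.74 ± 0.34, adjusted P = 0.00069). In WT versus KO+AAV at 40 weeks, 2 of 8 genes were called (*Fst* and *Ostn*), against 12.5% of all genes.

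At 10 weeks the 3 groups overlapped in *Fst*, where the mean ± SD was 59.5 ± 21.3 (WT, n = 6), 51.8 ± 21.6 (KO, n = 6), and 86.2 ± 52.3 (KO+AAV, n = 7). The KO+AAV mean held 1 library at 195.8 (replicate 4), whose summed fibroblast markers were 131758 against 6343 to 24035 in the KO and the other KO+AAV libraries at that age, and the part of these cells in its *Fst* value was not tested. From 10 to 40 weeks *Fst* rose by 1.72 ± 0.35 in KO (log2, adjusted P = 0.00353) and by 1.51 ± 0.35 in KO+AAV (adjusted P = 0.00601), and the difference in WT was 0.18 ± 0.35 (adjusted P = 0.941). The difference between ages of WT versus KO was -1.53 ± 0.46 (adjusted P = 0.135), and -1.80 ± 0.45 without the KO library replicate 5 at 40 weeks (adjusted P = 0.0378). No gene of the 8 passed the test of this difference in limma, and DESeq2 and edgeR called 0, against 0.370% of all genes in limma. At an unadjusted P under 0.05 there were 2 of the 8, and 2111 of all 16199 genes. The 2 highest *Fst* means, KO+AAV and KO at 40 weeks, were within the larger SD of each other, and the step down to the remaining groups exceeded it.

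*Ostn* (ENSMUSG00000052276, chromosome 16, 27307489 to 27351212) was higher at 40 weeks than at 10 weeks in WT, KO, and KO+AAV. At 10 weeks, counts were 170.4 at the lowest, 284.8 at the median, and 334.9 at the highest in WT, and 232.6, 481.6, and 644.1 in KO. Those in KO+AAV were 264.1, 361.5, and 556.7. In the 40-week libraries they were 1287, 511.3, 1616, 1454, and 550.2 in WT. Every 40-week WT library exceeded every 10-week WT library, and the same held in KO and in KO+AAV. The increase was 3.25-fold in WT (log2 fold change 1.70 ± 0.35 SE, adjusted P = 0.0354), 3.69-fold in KO (1.88 ± 0.35, adjusted P = 0.00168), and 4.74-fold in KO+AAV (2.25 ± 0.35, adjusted P = 0.000105). The increase in WT lost its call with Novogene libraries alone (1.76, adjusted P = 0.305), the site at which all 40-week libraries were sequenced.

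Knockout libraries lay above WT in *Ostn* at 40 weeks, and the KO+AAV difference passed the test. KO counts at 40 weeks were 2388, 678.7, 1767, 2736, and 2285, and KO+AAV counts were 2470.5, 1040.0, 1862, 2647, and 2566. In each of these groups replicate 2 was the only library inside the WT range. The KO+AAV mean was 2117 ± 677 (SD, n = 5) and the WT mean 1084 ± 518 (n = 5). In the model KO+AAV was above WT by 2.07-fold (log2 fold change of WT versus KO+AAV -1.05 ± 0.35 SE, adjusted P = 0.0404). This call was lost in 9 of 20 alternatives, among them leaving out WT replicate 2 or 5 or KO+AAV replicate 1, 3, 4, or 5 (-0.82 to -1.08, adjusted P from 0.0615 to 0.138). For WT versus KO the difference was -0.88 ± 0.35 (adjusted P = 0.0619), and -1.23 without the library labelled KO replicate 2 (adjusted P = 0.00593). At 10 weeks it was -0.70 ± 0.31 in limma (adjusted P = 0.199). That 10-week difference was called with Novogene libraries alone (0.026), the 2 groups alone (0.0224), and a replicate block (0.0196). WT versus KO+AAV at 10 weeks was -0.51 ± 0.30 (adjusted P = 0.395). The difference between ages of WT versus KO was -0.18 ± 0.47 (adjusted P = 0.904). Beside *Ostn* the annotation places Gm32312 on the other strand, over 12.9% of its exon bases, and since the strand setting of the counting was not given in the sources used here, reads of the pair cannot be told apart there.

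*Apln* (ENSMUSG00000037010, chromosome X, 48025146 to 48034853) was lower in WT than in KO+AAV at 10 weeks, and it fell with age in both knockout groups. At 10 weeks, counts in WT were 28.1 at the lowest, 36.8 at the median, and 57.6 at the highest. In KO they were 58.4, 98.3, and 235.4, with no overlap with WT, and in KO+AAV 55.3, 108.7, and 371.0, with 1 library inside the WT range. The WT mean was 40.4 ± 13.4 (SD, n = 6) and the KO+AAV mean 144.1 ± 104.3 (n = 7). In the model *Apln* was lower in WT than in KO+AAV by 3.14-fold (log2 fold change -1.65 ± 0.45 SE, adjusted P = 0.0248). It was the 1 of 8 genes called in WT versus KO+AAV at 10 weeks, against 5.15% of all genes. Without KO+AAV replicate 4, which held the highest *Apln* value and the most fibroblast marker counts, the difference was -1.37 (adjusted P = 0.0756), and without WT replicate 4 it was -1.58 (adjusted P = 0.0579). The difference from KO (113.6 ± 63.2, n = 6) was -1.38 ± 0.47 (adjusted P = 0.0641), and -1.49 in DESeq2 (adjusted P = 0.00717).

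Counts of *Apln* at 40 weeks were 13.3, 23.8, 30.1, 18.8, and 23.5 in WT and 13.8, 5.37, 38.3, 35.7, and 27.6 in KO. In KO+AAV they were 51.0, 7.02, 46.6, 61.0, and 85.1. All KO libraries at 40 weeks were below all KO libraries at 10 weeks, and 4 of 5 KO+AAV libraries were above every other library of that age. *Apln* fell 5.41-fold from 10 to 40 weeks in KO (log2 fold change -2.44 ± 0.52 SE, adjusted P = 0.00494) and 3.37-fold in KO+AAV (-1.75 ± 0.52, adjusted P = 0.0311), and in WT the difference was -0.96 ± 0.52 (adjusted P = 0.726). The KO+AAV call was lost without KO+AAV replicate 2 at 40 weeks (-1.17, adjusted P = 0.151), with Novogene libraries alone (-1.57, adjusted P = 0.191), with the 2 groups alone (adjusted P = 0.262), and with no filter (adjusted P = 0.058). The KO+AAV mean was 50.2 ± 28.3 (SD, n = 5) and the KO mean 24.1 ± 14.2 (n = 5). Their log2 difference in the model was 0.95 (95% interval -0.09 to 1.998, adjusted P = 0.557). Fewer cells of a type and less RNA per cell cannot be told apart in these bulk samples, and summed endothelial markers ranged from 3126 to 7350 in the 10-week libraries and from 3175 to 5178 at 40 weeks. Fibroblast markers were lower at 40 weeks in KO+AAV (3 of 6 called, median log2 fold change -1.61), and in KO their median was -1.02 with 0 of 6 called in limma. The part of these cells in the *Apln* change was not tested.

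The remaining tested genes, *Vegfa*, *Fndc5*, *Metrnl*, and *Il15*, passed no test between the 6 main GTN groups in the main model, and for each of them every neighbour in the order of the 6 group means lay within the larger SD. *Vegfa* (ENSMUSG00000023951, chromosome 17, 46016993 to 46032369) had group means from 3419 (KO+AAV at 10 weeks) to 5207 (KO+AAV at 40 weeks). Without the library labelled KO replicate 2, which at 2133 was the lowest *Vegfa* value of all 34, its difference in WT versus KO at 40 weeks was -0.57 (adjusted P = 0.0458), against -0.28 ± 0.24 (adjusted P = 0.424) with it. *Fndc5* (ENSMUSG00000001334, chromosome 4, 129136999 to 129144593) ranged from 602.1 to 3265 within KO at 10 weeks alone, and its group means from 1192 to 1993. Group means of *Metrnl* (ENSMUSG00000039208, chromosome 11, 121701544 to 121716306) lay between 68.2 and 118.4. *Il15* (ENSMUSG00000031712, chromosome 8, 82331632 to 82403222) had group means from 46.2 to 93.8.

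*Il15* showed the largest departure of KO+AAV from KO at 40 weeks by unadjusted P among the 8 genes. Its counts were 74.3, 66.3, 111.9, 73.2, and 143.4 in KO and 73.3, 21.1, 61.0, 42.7, and 63.5 in KO+AAV. Only KO+AAV replicate 1 lay inside the KO range. The log2 fold change was -0.88 ± 0.34 SE (95% interval -1.58 to -0.19, adjusted P = 0.352), which did not pass the test. *Il15* in WT versus KO+AAV at 40 weeks was 0.83 ± 0.34 (adjusted P = 0.111, limma), and 0.90 with the slow fiber covariate (adjusted P = 0.0419).

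In KO+AAV versus KO, none of the 8 genes was called at 10 weeks, where 0.204% of all genes were, or at 40 weeks, where 0.259% were. DESeq2 and edgeR also called 0 of the 8 at both ages, and in limma 1 gene had an unadjusted P under 0.05 at each age (*Fst* at 10 weeks, *Il15* at 40 weeks). The median log2 fold change over the 8 genes was -0.05 at 10 weeks and 0.16 at 40 weeks, beside 0.01 and 0.02 over all genes. The difference between ages of this comparison called 0 of 8 genes, with 0 at an unadjusted P under 0.05, and 0 in DESeq2 and edgeR, against 0.00617% of all genes. WT versus KO+AAV likewise called none of the 8 between ages in the 3 tools, against 0.642% of all genes, and at an unadjusted P under 0.05 there were 2 of the 8 and 1905 of all genes.

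**Figure D2:**
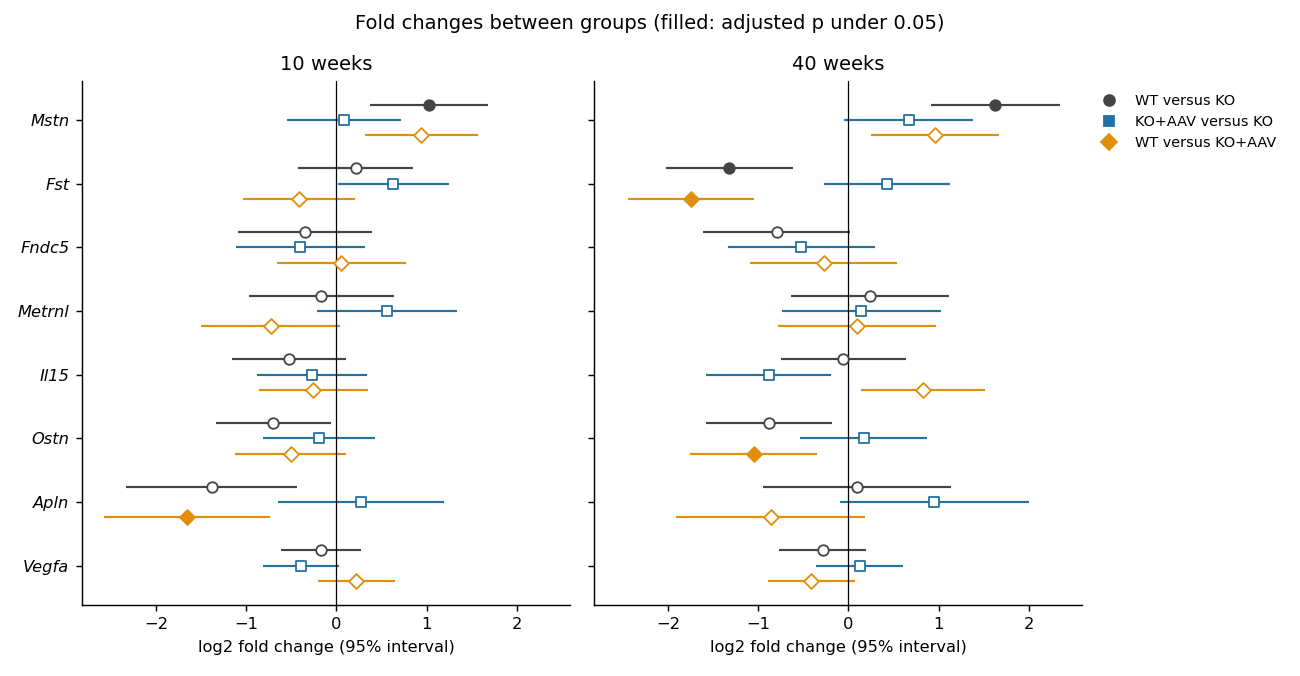
Log2 fold change (x axis) with its 95% interval for each tested gene (y axis) in the 3 GTN comparisons at 10 weeks (left) and 40 weeks (right), from limma, with filled symbols for an adjusted P under 0.05. *Mstn* is filled in WT versus KO at both ages, *Fst* in both comparisons with WT at 40 weeks, and no KO+AAV versus KO symbol is filled.

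With age, 1 of 8 genes was called in WT (*Ostn*), against 0.148% of all genes, and 3 of 8 in KO (*Apln*, *Fst*, and *Ostn*), against 8.31%. The 3 called in KO+AAV were also *Apln*, *Fst*, and *Ostn*, against 8.53% of all genes. These age comparisons set 10-week libraries of both sites against 40-week libraries of Novogene alone. Between the sites, 23.0% of all genes differed, and of the 8 genes limma, DESeq2, and edgeR called 0, with 0 at an unadjusted P under 0.05. The largest site difference among the 8 was that of *Ostn* (0.30 ± 0.25, adjusted P = 0.5).

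*Fgf21* (ENSMUSG00000030827, chromosome 7, 45613886 to 45615490) had no read in any of the 11 WT GTN libraries. In KO it had reads in 4 of 6 libraries at 10 weeks and 4 of 5 at 40 weeks, and in KO+AAV in 2 of 7 and 4 of 5. Single libraries held at most 8 reads, and 45 were counted over all 34 libraries. The 40-week normalized counts were 5.50, 0, 1.53, 8.92, and 2.76 in KO and 4.78, 0, 8.87, 6.10, and 3.60 in KO+AAV. A count of 0 allows up to 3 reads in a library, and no fold or test is given at this depth.

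Part of the spread of 4 genes went with the slow fiber markers of the library. Across the 34 libraries, after group and site, *Fndc5* changed by 0.33 ± 0.04 (SE) log2 units for each log2 unit of the summed slow fiber markers, *Metrnl* by 0.30 ± 0.06, and *Il15* by 0.17 ± 0.05. *Mstn* went the other way, by -0.20 ± 0.05. The slopes of *Apln* (0.15 ± 0.09), *Fst* (0.12 ± 0.06), *Vegfa* (0.10 ± 0.04), and *Ostn* (-0.13 ± 0.06) were shallower. These slopes are descriptions over libraries that share their site and groups. Median marker sums were 17775 in KO and 5555 in WT at 10 weeks, and 32819 in KO, 7096 in WT, and 4997 in KO+AAV at 40 weeks. With the marker sum as a covariate, *Mstn* in WT versus KO was 0.84 at 10 weeks (adjusted P = 0.0466) and 1.201 at 40 weeks (adjusted P = 0.00561), *Fst* at 40 weeks was -1.06 (adjusted P = 0.0292), and *Ostn* at 40 weeks was -1.16 (adjusted P = 0.0169). *Mstn* in KO+AAV versus KO at 40 weeks was 0.33 with the covariate and 0.67 without. In WT versus KO at 40 weeks *Fndc5* was -0.10 with it and -0.79 without, and *Metrnl* was 0.87 and 0.24. These last differences of *Mstn*, *Fndc5*, and *Metrnl* passed the test in neither model.

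**Figure D3:**
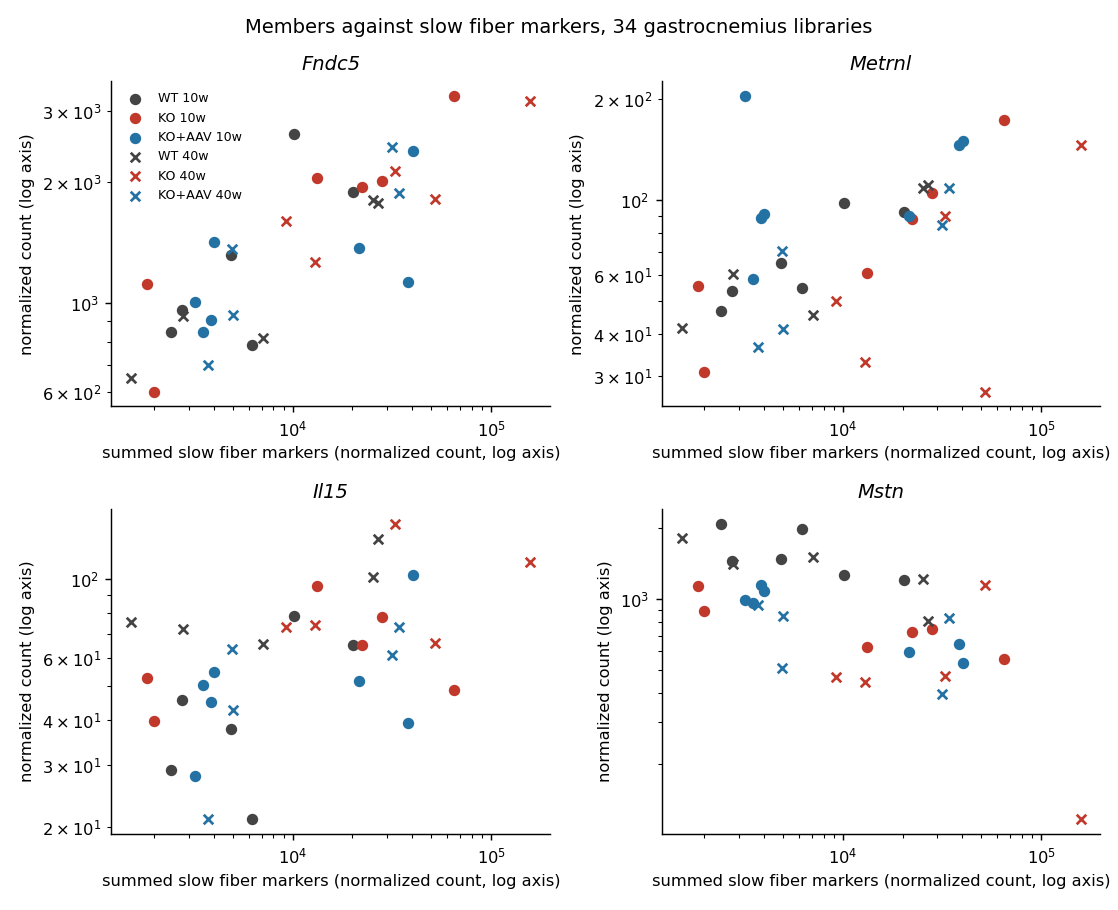
Normalized count of 4 genes (y axes, log scale) against the summed normalized count of 7 slow fiber markers (x axes, log scale) in the 34 main GTN libraries, with color for the group and symbol for the age. Over all 34 libraries *Fndc5* points tend upward from left to right and *Mstn* points downward, the lowest of the latter, a KO library at 40 weeks with 116.5 counts, having the highest marker sum (157754).

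For the 4 genes with a span over 1 log2 unit, the tested genes with the most similar pattern over the 6 group means were found by the root mean square difference of centred log2 means. Those of *Mstn* were Gm14322 (0.06), *Aspa* (0.09), and *Tst* (0.10). *Bdnf* (0.15), 2810029C07Rik (0.17), and *Aif1l* (0.17) were nearest to *Fst*, *Bdnf* encoding a neurotrophin that muscle also expresses. Nearest to *Ostn* were Gm32312 (0.05), the gene that overlaps it, *Pkdrej* (0.19), and 4921536K21Rik (0.20). *Lrrc55* (0.17), *Top2a* (0.17), a DNA topoisomerase of dividing cells, and *Col26a1* (0.18) were nearest to *Apln*.

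In the separate GFP experiment, *Fndc5* and *Fst* were higher in KO+GFP than in KO control muscle. *Fndc5* counts were 921.8, 801.3, and 921.8 in KO+GFP and 573.7, 495.5, and 342.0 in KO control. *Fst* counts were 36.0, 41.3, and 52.0 against 18.9, 10.2, and 23.8. Neither gene overlapped between the groups. The log2 fold changes were 0.93 ± 0.16 SE for *Fndc5* (adjusted P = 0.00779) and 1.30 ± 0.32 for *Fst* (adjusted P = 0.0472), which made 2 of 8 genes called against 3.09% of the 14477 genes tested. The libraries held 9 to 59 *Fst* reads each, and its call was lost without any 1 of the KO+GFP libraries or without KO control replicate 2 (adjusted P from 0.0827 to 0.220). The *Fndc5* call was lost without KO+GFP replicate 3 (adjusted P = 0.061).

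Of the other 6 tested genes in this experiment, *Metrnl* (0.75 ± 0.24, adjusted P = 0.117), *Vegfa* (0.28 ± 0.09, adjusted P = 0.101), and *Mstn* (-0.43 ± 0.13, adjusted P = 0.0985) did not overlap between the groups either. *Il15* differed by 0.78 ± 0.35 (adjusted P = 0.252), *Apln* by -0.16 ± 0.30, and *Ostn* by 0.01 ± 0.14 (95% interval -0.29 to 0.31). At an unadjusted P under 0.05 in limma there were 6 of the 8 genes, and 2713 of all 14477 genes. The share of all genes without overlap was not computed, so the lack of overlap in uncalled genes is a description only. Slow fiber markers moved with the vector group here: their sum was 11139 to 15683 in KO+GFP and 1273 to 7660 in KO control, with 5 of 7 markers called higher. Of the macrophage markers 5 of 7 and of the fibroblast markers 3 of 6 were also called higher, and 3 of 5 Schwann cell markers lower. The macrophage sum was 414.2 to 517.2 against 172.7 to 236.4. The part of these cells in the *Fndc5* and *Fst* differences was not tested.

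**Figure D4:**
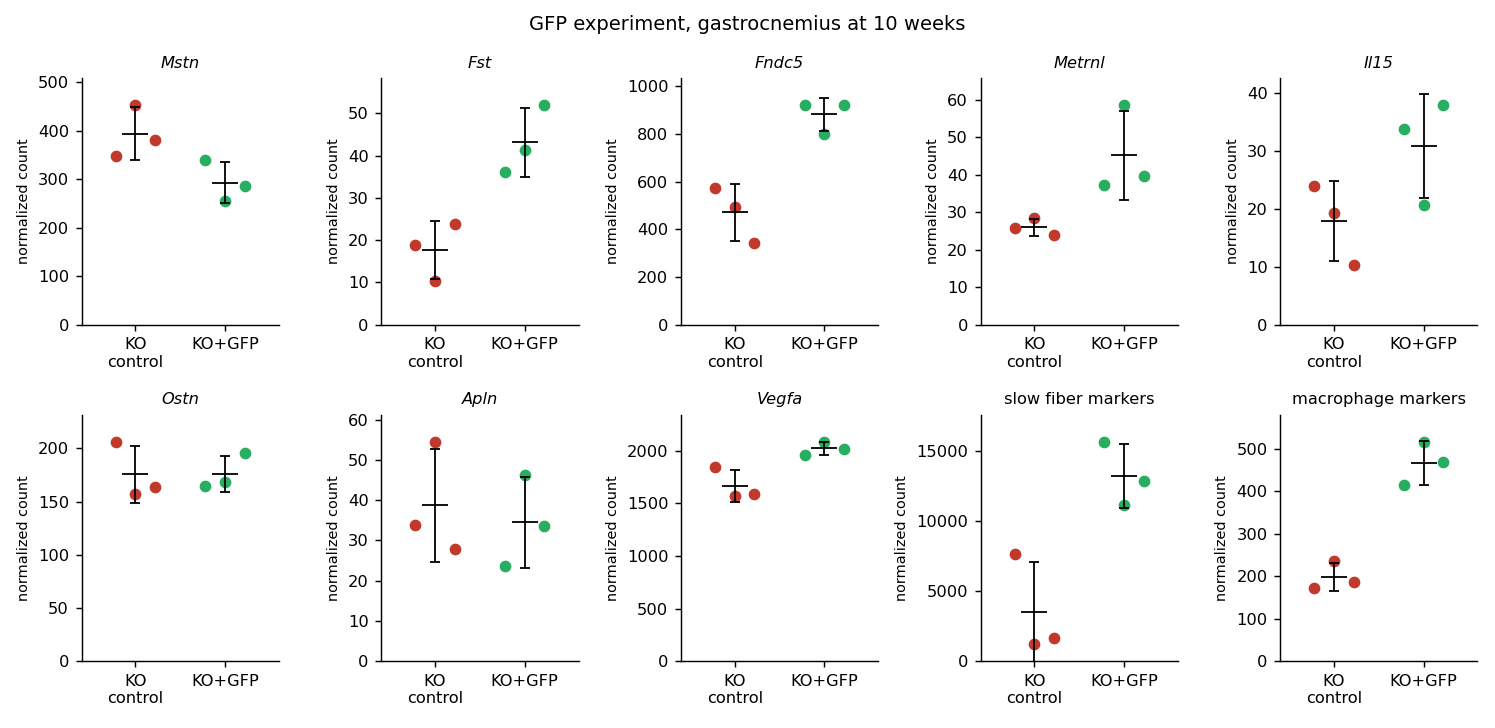
Normalized count (y axes, from 0) of the 8 tested genes and the summed count of 7 slow fiber and 7 macrophage markers in 3 KO control and 3 KO+GFP libraries (x axes), with the mean ± SD. KO+GFP points lie above all KO control points for *Fndc5*, *Fst*, *Metrnl*, *Vegfa*, and both marker sums, and below them for *Mstn*.

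At 40 weeks the genes differed in where they were expressed, described here as mean RPKM in KO and KO+AAV libraries. *Ostn* was at 83.6 and 92.8 in the GTN and at or below 0.0889 in heart, lung, liver, and white fat. *Mstn* was at 11.2 and 16.0 in the GTN, 0.503 and 0.426 in heart, and at most 0.0828 elsewhere, with 0 reads in the 8 liver libraries. *Fndc5* was higher in heart (109 and 108) than in the GTN (43.9 and 33.2), and *Il15* likewise (7.21 and 8.20 in heart, 2.51 and 1.45 in the GTN). *Vegfa* (266 and 206) and *Apln* (13.6 and 10.1) were highest in lung, as was *Fst* (5.51 and 5.10). *Metrnl* was at 11.4 and 9.07 in white fat and 9.48 and 8.98 in lung, against 2.72 and 2.68 in the GTN. *Fgf21* was highest in liver (6.41 and 0.558).

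**Figure D5:**
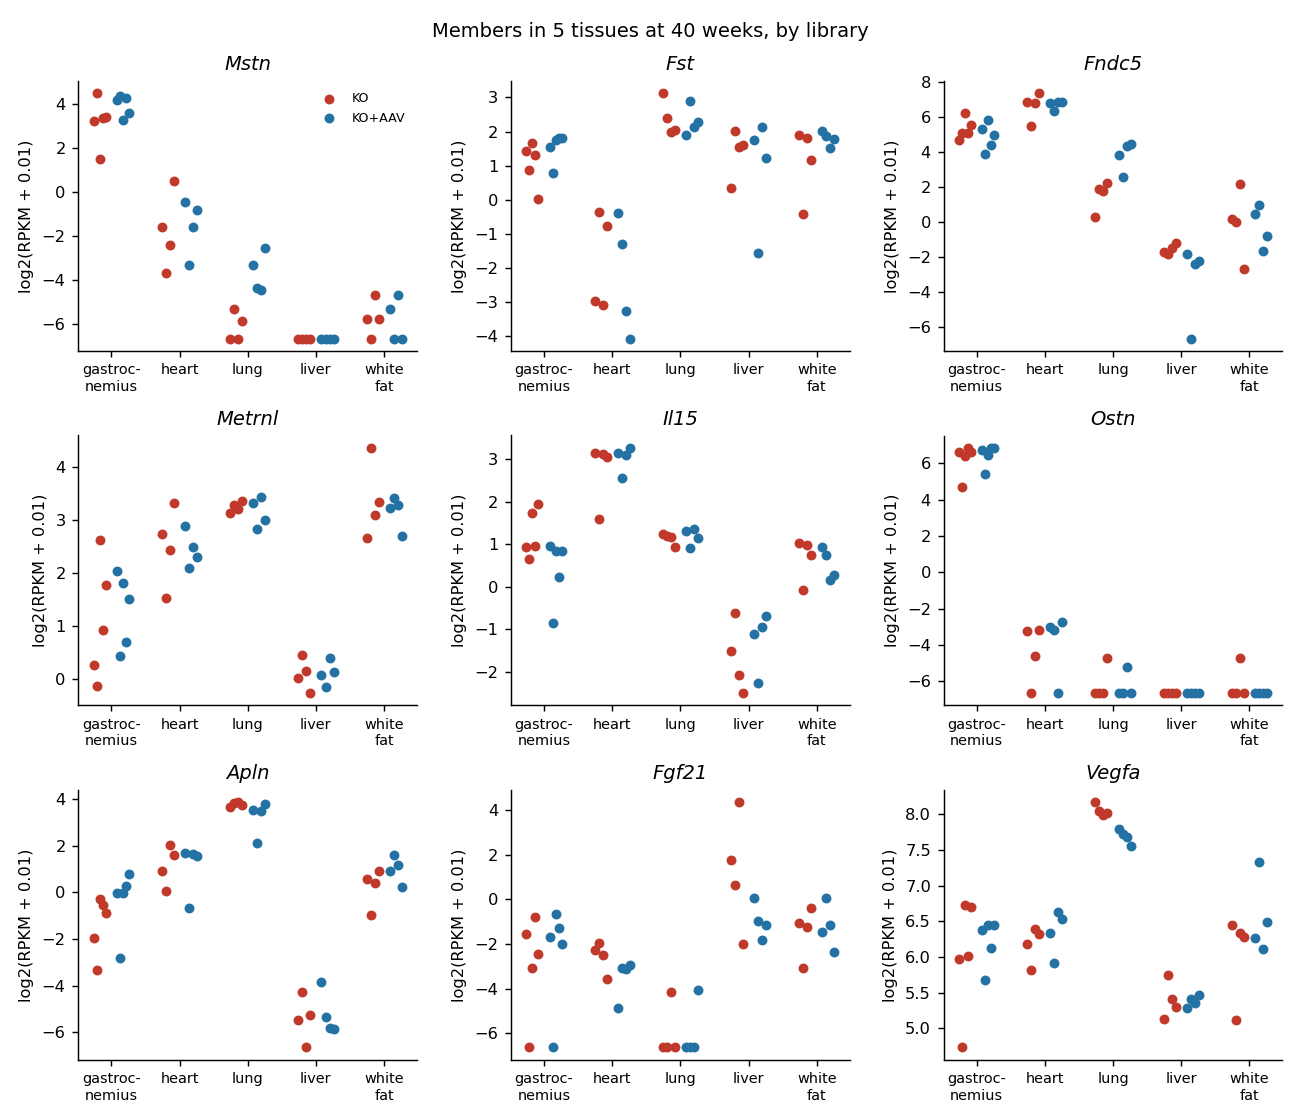
Log2(RPKM + 0.01) (y axes) of the 9 genes in 5 tissues at 40 weeks (x axes), 1 point per library, red for KO and blue for KO+AAV. *Ostn* and *Mstn* are highest in the GTN, *Fndc5* and *Il15* in heart, and *Apln* and *Vegfa* in lung.

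In heart, 8 of the 9 genes were tested, and limma, DESeq2, and edgeR called 0 of them between KO+AAV and KO, with 0 at an unadjusted P under 0.05, as limma called 0% of the 18089 genes. *Fndc5* counts in heart were 14418, 6086, 13226, and 15972 in KO and 12103, 9518, 14464, and 14371 in KO+AAV. The low value of 6086 came from KO replicate 2, whose hepatocyte markers summed to 1383929 against 270.6 to 347.4 in the other 7 heart libraries, and this library was also lowest in *Il15* (338.1 against 555.6 to 961.4). The difference was 0.09 ± 0.31 for *Fndc5* (95% interval -0.62 to 0.80) and 0.26 ± 0.32 for *Il15* (95% interval -0.48 to 0.998). Both fits include KO replicate 2, and fits without it are not given here. The remaining KO counts of *Fndc5* were 13226 to 15972, against 9518 to 14464 in KO+AAV. *Apln* had a wide interval (-1.49 to 1.25), with KO+AAV replicate 2 at 81.1 against 392.3 to 433.9 in the others.

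In lung, limma called 0 of 7 tested genes, against 0.0237% of 21072 genes. At an unadjusted P under 0.05 there were 3 of the 7, and 2517 of all genes. DESeq2 called *Fndc5* and *Vegfa*, and edgeR called none. *Fndc5* counts were 155.4, 457.1, 404.2, and 561.2 in KO and 1735, 731.4, 2486, and 2740.0 in KO+AAV, with no overlap (2.26 ± 0.48, adjusted P = 0.123). Ventricular cardiomyocyte markers were also higher in every KO+AAV library than in every KO library, at 4974, 29721, 31028, and 45491 in KO and 153978, 68743, 198355, and 236566 in KO+AAV, with 6 of 6 markers tested and 0 called in limma. *Mstn* moved likewise on 0 to 19 reads a library (2.60 ± 0.59, adjusted P = 0.140). The part of cardiac tissue in these differences was not tested. *Vegfa* was 56691, 49149, 46785, and 47962 in KO and 40709, 39805, 38015, and 36142 in KO+AAV, with no overlap (-0.37 ± 0.08, adjusted P = 0.137).

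In liver, 0 of 6 tested genes were called by limma, DESeq2, or edgeR, with 0 at an unadjusted P under 0.05, and 0% of 16656 genes were called. *Fgf21*, which the liver releases in fasting, had counts of 140.7, 57.4, 799.9, and 9.49 in KO and 40.2, 20.4, 10.9, and 17.1 in KO+AAV. The groups overlapped, and the KO mean rested on replicate 3 (-2.13 ± 1.09, 95% interval -4.57 to 0.31, adjusted P = 0.997). In white fat, 0 of 7 tested genes were called by the 3 tools, with 0 at an unadjusted P under 0.05, and 0% of 21092 genes were called. *Vegfa* was lowest in KO replicate 2 (6149 against 13898 to 27032 in the other 7 libraries), and so was *Fst* (139.3 against 495.0 to 842.9). In that library epididymis markers summed to 1114475 against 1.08 to 841.2 in the others, and adipocyte markers to 177150 against 654207 or more.

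Of 17 tested genes of the myostatin pathway, 5 were called in WT versus KO at 40 weeks, near the 23.5% of all genes, 4 higher and 1 lower in WT (median log2 fold change 0.32, beside 0.01 over all genes). *Smad3*, a receptor-activated transcription factor of the pathway, was higher in WT (1.03 ± 0.21, adjusted P = 0.000616), as was *Gdf11*, the closest relative of *Mstn* (1.56 ± 0.37, adjusted P = 0.00227). *Bmp1*, a protease that frees latent myostatin, was also higher in WT (0.94 ± 0.26, adjusted P = 0.00812). *Inhbb*, an activin subunit, was lower in WT at 40 weeks (-1.23 ± 0.32, adjusted P = 0.00553) and at 10 weeks (-1.23 ± 0.30, adjusted P = 0.00621), where it was the 1 gene of 17 called, against 8.0% of all genes. KO+AAV versus KO called none of the 17 at either age, against 0.204% of all genes at 10 weeks and 0.259% at 40 weeks.

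Around *Apln* and *Vegfa*, 4 of 16 genes were called in WT versus KO at 40 weeks, near the 23.5% of all genes. *Flt1*, a VEGF receptor (-0.69 ± 0.18, adjusted P = 0.00502), and the hypoxia-inducible factors *Epas1* (-0.44 ± 0.13, adjusted P = 0.0127) and *Hif1a* (-0.43 ± 0.14, adjusted P = 0.0203) were lower in WT and *Pgf*, a VEGF family ligand, was higher, and 3 of 7 endothelial markers were called lower in WT with them. At 10 weeks 0 of 16 were called in limma, against 8.0% of all genes. Of the 6 tested genes of IL-15 signaling, 2 were called in WT versus KO at 40 weeks, against 23.5% of all genes. *Stat5b* was higher in WT at 40 weeks (0.91 ± 0.21, adjusted P = 0.00151), and *Stat5a* was lower at 40 weeks (-0.51 ± 0.18, adjusted P = 0.0347) and 10 weeks (-0.57 ± 0.16, adjusted P = 0.0229). In the PGC-1alpha axis of irisin and meteorin-like, *Ppargc1a*, the coactivator itself, was higher in WT at 40 weeks (0.67 ± 0.19, adjusted P = 0.0094), and so was *Itgb5*, a subunit of an integrin that binds irisin (0.56 ± 0.14, adjusted P = 0.00298). These were 2 of 8 tested genes, near the 23.5% of all genes. *Fndc5* (-0.79 ± 0.40) and *Metrnl* (0.24 ± 0.43) did not pass the test in this comparison.

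Of 12 tested genes of FGF21 signaling and the integrated stress response, 1 was called in WT versus KO at 40 weeks, below the 23.5% of all genes. It was *Shmt2*, a mitochondrial serine enzyme (-0.43 ± 0.09, adjusted P = 0.00108). None of 4 tested natriuretic peptide genes was called in the 6 comparisons of groups at 1 age in the main experiment, against 0.204% to 23.5% of all genes. *Npr3*, the receptor that osteocrin occupies, was higher in KO+GFP than in KO control (1.72 ± 0.34, adjusted P = 0.0188). Among receptors for the 9 factors, 2 of 15 were called in WT versus KO at 40 weeks (*Itgb5* and *Flt1*), below the 23.5% of all genes. Between KO+AAV and KO, limma called 0 receptors in the GTN, heart, lung, liver, or white fat. Of all genes it called 0.204% (10 weeks) and 0.259% (40 weeks) in the GTN, 0.0237% in lung, and 0% in heart, liver, and white fat.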

How the data were processed

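The 72 libraries were poly(A) RNA-Seq of single tissues. The authors aligned reads to GRCm38 (mm10) with HISAT2, counted them per gene with HTSeq, and deposited a signal per gene, the count divided by 1 DESeq2 size factor per library. The strand setting and annotation release were not given in the sources used here. Every deposited value, times its library's factor, was a whole number within 0.1 (100% of values), so reads were recovered. The 55401 Ensembl IDs were matched to symbols with GENCODE, and RPKM was computed from recovered reads and union exon length. Normalized counts are compared only within 1 table or tissue.

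Differences were tested with limma 3.58.1 (R 4.3.3) with an intensity trend on log2(normalized count + 1), so that fold changes of low genes are understated, over genes with a mean above 5, with Benjamini-Hochberg adjustment over all of them and an adjusted P under 0.05 for a call. All 34 main GTN libraries entered 1 model with group and sequencing site, and each other tissue and the GFP experiment had its own. The same code was tested on simulated data. Alternatives were edgeR 4.0.16 and DESeq2 1.42.0 on recovered reads, TMM scaling, a pseudocount of 0.5, a filter at 50 or none, no site term, 1 site alone, 2 groups alone, a replicate block, and leaving out each library. After the data were seen, the slow fiber covariate, Novogene alone for the differences between ages, and leaving out replicate 4 of WT or KO+AAV at 10 weeks were added. No other 10-week library of the main experiment was left out. Whether the 10-week calls rest on another single library of that age was not tested.

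The genes, lists, and markers were chosen with earlier results of these data known. Named were the 9 genes, *Arntl*, at most 4 genes of each list by P, receptors called in a tissue, and the 3 nearest patterns. *Dbp*, *Per3*, and *Npr3* were named after their values were seen. Replicates are separate samples in the labels, which do not tie each to its own mouse, so P values measure the spread between these samples. Depth limits precision by counting error only as far as reads are independent molecules.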

Additional observations from a re-analysis of the deposited data

Results flagged for a closer look

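Within groups of 4 to 10 libraries, 10 of 112 groups held 1 library whose distance to the next was large against the range of the group by Dixon's criterion, which chance alone meets in about 1 of 20 groups. *Fst* was high in KO+AAV GTN at 10 weeks, replicate 4 (195.8 normalized counts, next 95.2), and low in KO+AAV GTN at 40 weeks, replicate 2 (134.7, next 223.1). *Apln* was high in the same replicate 4 at 10 weeks (371.0, next 144.1), the library with the most fibroblast marker counts (131758). It was also high in KO GTN at 10 weeks, replicate 5 (235.4, next 116.0), and in KO+AAV liver replicate 1 (7.81, next 2.04), and low in KO+AAV heart replicate 2 (81.1, next 392.3). *Fndc5* (2375, next 1415) and *Il15* (102.9, next 54.8) were both high in KO+AAV GTN at 10 weeks, replicate 6. *Fgf21* was high in KO liver replicate 3 (799.9, next 140.7) and low in KO+AAV heart replicate 1 (0.878, next 4.31).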

How the results depend on the processing

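Values under an alternative were compared with the main model for the tested candidate myokine genes only, over all comparisons. Of these values, 2132 stayed on the same side of the threshold, 31 newly passed it, and 35 no longer did. Values that were not called could change sign and still count as the same. *Fndc5* with age in KO, for example, was 0.20 in the main model and -0.24 with the slow fiber covariate. *Mstn* and *Fst* in WT versus KO at 40 weeks and *Fst* in WT versus KO+AAV at 40 weeks were called in 20 of 20 alternatives, and *Ostn* with age in KO+AAV in 16 of 16. With age in KO, *Apln*, *Fst*, and *Ostn* were each called in 14 of 15, and the call was lost only with the 2 groups alone. *Ostn* in WT versus KO+AAV at 40 weeks was called in 11 of 20, *Ostn* with age in WT in 10 of 16, *Apln* in WT versus KO+AAV at 10 weeks in 10 of 14, and *Mstn* in WT versus KO at 10 weeks in 10 of 13. The causes of these changes were not tested.

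Genes called in WT versus KO at 10 weeks (1) came to 0 with no filter, no site term, or ICBR alone, to 2 with DESeq2, edgeR, or Novogene alone, and to 3 with only the 2 groups compared. In WT versus KO+AAV at 10 weeks (1) they came to 2 with DESeq2, edgeR, or only the 2 groups, and to 0 with ICBR alone. In WT versus KO+AAV at 40 weeks (2) they came to 1 without the site term and 4 with the slow fiber covariate. With age and only the 2 groups compared they came to 0 in WT and KO and to 1 in KO+AAV, and with Novogene alone to 0 in WT. The lung count (0) was 2 with DESeq2, and the GFP count (2) was 1 with a filter at 50. Leaving out 1 library gave 2 to 4 calls in WT versus KO at 40 weeks, 1 to 3 in WT versus KO+AAV at 40 weeks, and 0 to 1 in WT versus KO+AAV at 10 weeks, in WT with age, in the difference between ages of WT versus KO, and in lung. The GFP experiment gave 0 to 3. Shares of all genes called under each alternative are not given here, so these counts describe the settings and are no result about the genes. At 9325122 to 13610317 reads per 40-week GTN library, *Fgf21* stayed at or below 8 reads.

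Replicate numbers did not pair the samples throughout. Correlations of same-numbered libraries ran from 0.082 to 0.27 between WT and KO at 10 weeks and from -0.246 to 0.195 at 40 weeks. Between KO and KO+AAV they ran from -0.022 to 0.57 in the GTN at 40 weeks and from -0.488 to 0.702 in white fat. No comparison had every pair over 0.1, and whether some same-numbered samples belong together was not tested. With a replicate block, 3 genes were called in WT versus KO at 10 weeks, 3 in WT versus KO+AAV at 10 weeks, 3 in WT versus KO at 40 weeks, 2 in WT versus KO+AAV at 40 weeks, 2 in the GFP experiment, and 0 in every KO+AAV versus KO comparison. These counts, too, stand without the share of all genes called with the block.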

Other observations

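Among 22 other tested genes for secreted factors, *Cx3cl1* (fractalkine, a chemokine anchored in the membrane) had the smallest P in WT versus KO at 40 weeks. Its mean normalized count at 40 weeks was 47.0 ± 19.0 for WT (SD, n = 5), 251.8 ± 107.1 for KO (n = 5), and 362.9 ± 95.1 for KO+AAV (n = 5). No knockout library overlapped with WT, the lowest KO value being 121.4 and the highest WT value 73.5. The log2 fold change was -2.37 ± 0.28 SE in WT versus KO (adjusted P = 1.3e-07, limma), and against KO+AAV it was -2.97 ± 0.28 (adjusted P = 4.91e-09). At 10 weeks the WT mean was 41.2, the KO mean 56.8, and the KO+AAV mean 49.3, and the difference between ages of WT versus KO passed the test (-1.91 ± 0.37, adjusted P = 0.0188). In all, 7 of the 22 were called in WT versus KO at 40 weeks, 5 higher and 2 lower in WT, against 23.5% of all genes, and 3 at 10 weeks, against 8.0%. In KO+AAV versus KO limma called 0 of the 22 at either age, against 0.204% of all genes at 10 weeks and 0.259% at 40 weeks. *Dcn*, a matrix proteoglycan of fibroblasts, was higher in WT at 40 weeks (1.51 ± 0.32, adjusted P = 0.000701), as was *Metrn*, a relative of *Metrnl* (0.91 ± 0.17, adjusted P = 0.00017), whose exons overlap Gm26694 on the other strand.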
